A study of Mus musculus with 18 samples.

Results

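Coagulation and complement are cascades of plasma proteins that are made for the most part by hepatocytes and secreted into the blood as inactive precursors. In coagulation, an intrinsic arm and an extrinsic arm converge on factor X and prothrombin, thrombin cuts fibrinogen into fibrin, and antithrombin, protein C and plasmin hold the clot in check. In complement, the classical and lectin pathways build a convertase from C4 and C2, the alternative pathway builds one from factor B, and both lead to the terminal components C5 to C9, which assemble into the membrane attack complex.

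The genes described here are 33 listed hepatic members of these cascades. Of these, 30 were represented by a probe set annotated to that gene alone, 1 probe set each, out of 22180 genes with such a probe set. Klkb1, which encodes plasma prekallikrein, shared its probe set with Cyp4v3, and Masp2, a protease of the lectin pathway, shared its probe set with Tardbp, so neither was used. C3, the central complement component, was not analysed here.

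Livers and small intestines came from germ-free C57BL/6 mice, colonised at 5 to 6 weeks of age with the microbiota of a donor mouse and kept for 8 weeks. OMT recipients received microbiota from old donors, about 24 months of age, and YMT recipients received it from young donors, whose age is given as 4 weeks in one place and 5 to 6 weeks in another. The recipients' own age at sampling is given as 12 weeks in one label and 13 weeks in another. Each tissue was measured in 5 OMT and 4 YMT mice, called biological replicates, on 1 Affymetrix whole-transcript array each, so every value is a log2 array level of whole tissue. All recipients had been germ-free before the transfer, and no recipient without a transfer was analysed here. How many donors and cages were used is not stated in the labels, and a cage effect cannot be told apart from the age of the donor.

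The tissue labels held against the markers: the mean level of 12 hepatocyte markers was 12.04 to 12.11 on the OMT livers and 12.00 to 12.05 on the YMT livers, against 6.26 to 6.68 on the intestines, and 10 enterocyte markers averaged 11.57 to 12.38 in intestine and 5.17 to 5.54 in liver. Differences below are OMT minus YMT on the log2 scale with their standard error (SE), and limma's p-values were adjusted by the Benjamini-Hochberg method across every gene tested in the tissue, with 0.05 as the threshold. The number of arrays limits the precision.

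In liver, 5 of the 30 genes had a lower level in OMT recipients: the terminal complement genes C9, C6 and C8g, the convertase gene C2, and F11, which encodes coagulation factor XI. No member passed the threshold as higher, and 25 passed in neither direction. C9 had the largest fall of the members, to 25.3% of its YMT level, while the 3 fibrinogen chains, prothrombin and antithrombin differed by no more than 0.08. Over all 13380 genes tested in liver, 19.2% passed the threshold, 10.4% as higher and 8.78% as lower. In either direction, the members' share of 16.7% is near the 19.2% of all genes. As all 5 were falls, the share is above the 8.78% by direction, and none rose against 10.4%. No test was run over the list. In whole tissue, fewer cells of a type and less RNA per cell cannot be told apart. The median difference over the 30 genes was -0.04, against -0.01 over all genes tested. At an unadjusted p under 0.05, limma gave 8 of the 30 members as lower and 1 as higher, against 15% and 17.4% of all genes. The cascades are described in turn below, since 4 of the 13 complement members and 1 of the 17 coagulation members fell.

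**Figure D1:**
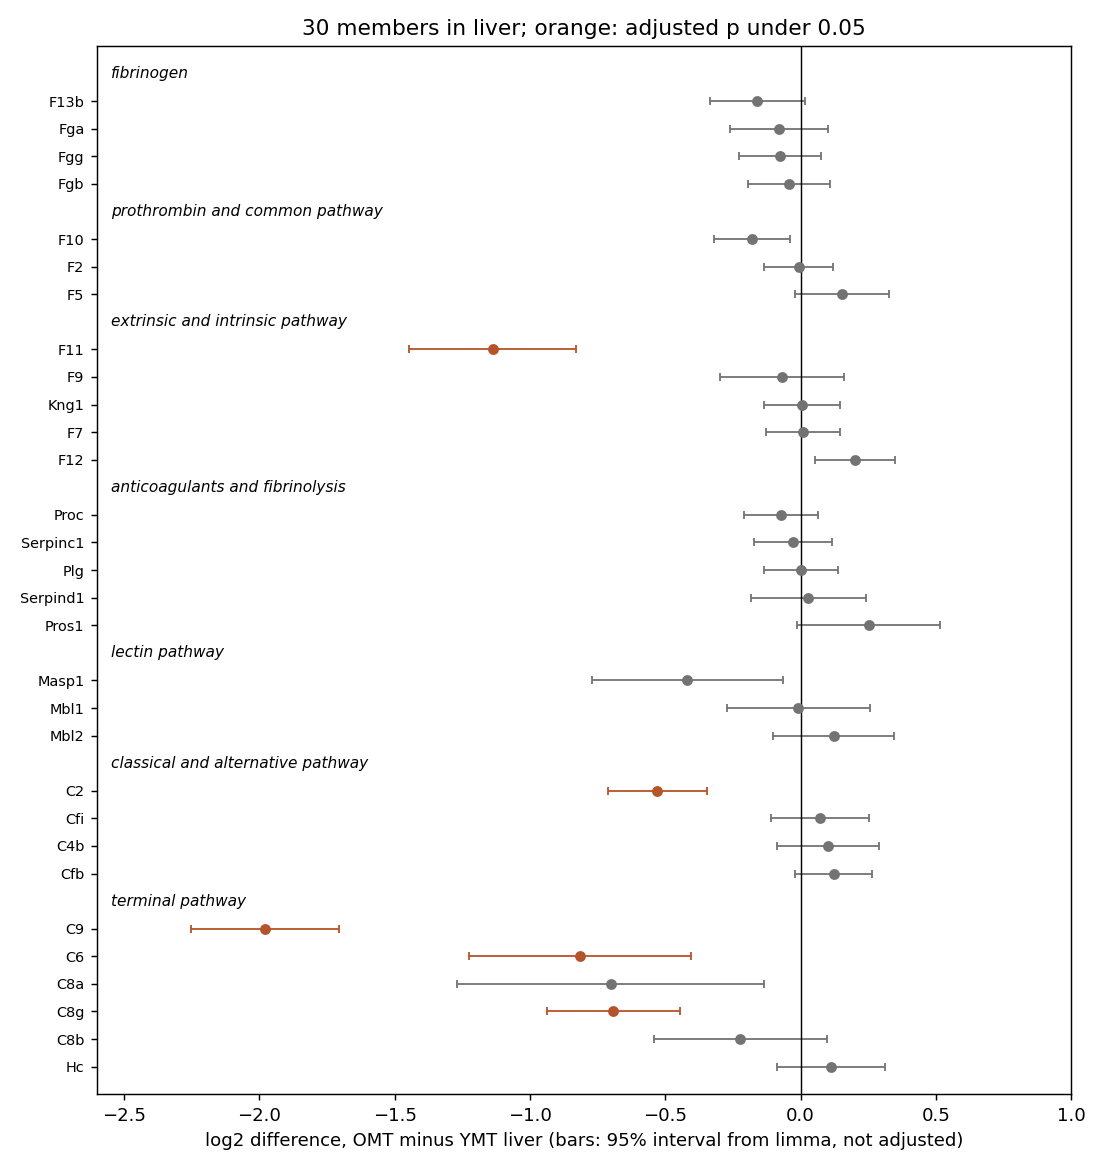
Difference between OMT and YMT livers for each of the 30 genes, in log2 units on the horizontal axis, with the 95% interval from limma as a bar and genes past the adjusted threshold in orange. C9 lies farthest to the left at -1.98, and 21 of the 25 genes that did not pass have an interval wholly within 0.5 of 0.

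The terminal pathway held 3 of the 5 falls, among 6 genes measured, with a median difference of -0.70. C9 (probe set 17309965) encodes the component that polymerises into the pore of the membrane attack complex. Its level on the OMT livers was 7.95, 8.07, 7.76, 8.21 and 7.88 for replicates 1 to 5, and on the YMT livers 9.88, 9.87, 10.31 and 9.76 for replicates 1 to 4. Every OMT liver lay far below every YMT liver, and both groups were tight. The difference was -1.98 ± 0.12, which is 3.95-fold (adjusted p = 6.85e-06 by limma).

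C6 (probe set 17309832) encodes a component that joins the complex after C5b. It lay at 8.49, 8.38, 7.69, 7.77 and 7.94 on the OMT livers and at 9.06, 8.66, 9.16 and 8.60 on the YMT livers. The groups did not overlap, but OMT livers 1 and 2 came close to YMT livers 2 and 4. The difference was -0.82 ± 0.19 (adjusted p = 0.0116 by limma).

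C8 is a complex of 3 chains from separate genes, and these did not give the same values. C8g (probe set 17382613), which encodes the gamma chain, a lipocalin, lay at 8.95, 9.16, 8.95, 9.25 and 8.77 on the OMT livers and at 9.89, 9.61, 9.79 and 9.54 on the YMT livers. All OMT livers were below all YMT livers, and the difference was -0.69 ± 0.11 (adjusted p = 0.00178 by limma). C8a, the alpha chain, lay at 9.42, 9.88, 8.72, 8.62 and 9.36 on the OMT livers and at 9.82, 9.66, 10.44 and 9.69 on the YMT livers. Its difference of -0.70 ± 0.26 was as large as that of C8g, but OMT liver 2 lay above 3 of the 4 YMT livers and the call was not made (adjusted p = 0.0809 by limma). C8b, the beta chain, differed by -0.22 ± 0.14 (adjusted p = 0.321), with 1 YMT liver, replicate 3, at 11.12 and the other YMT livers at 10.38 to 10.43. Hc, the mouse gene for C5, which starts the terminal pathway, differed by 0.11 ± 0.09 (adjusted p = 0.426).

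Among the genes of the classical and alternative pathways, C2 fell and the other 3 measured did not pass. C2 (probe set 17344086), the protease that is cut to form the C4b2a convertase, lay at 7.68, 7.88, 7.63, 7.65 and 7.49 on the OMT livers and at 8.19, 8.15, 8.30 and 8.14 on the YMT livers. The YMT livers were nearly level with each other and all above the OMT livers. The difference was -0.53 ± 0.08, or 1.44-fold (adjusted p = 0.00161 by limma). Cfb, the neighbouring gene in the genome, which encodes the homologous protease of the alternative pathway, had the opposite sign at 0.12 ± 0.06 and did not pass (adjusted p = 0.220). C4b differed by 0.10 ± 0.09, and Cfi, the protease that inactivates C3b and C4b, by 0.07 ± 0.08. The near-identical copy of C4b, C4a, had a probe set of its own. It averaged 5.24 on the OMT livers and 5.00 on the YMT livers, against 10.94 and 10.84 for C4b. Whether the C4b probes also bind C4a was not tested.

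In the lectin pathway none of 3 genes passed. Masp1, a protease that acts with the mannose-binding lectins, lay at 9.38, 9.47, 8.68, 8.82 and 8.96 on the OMT livers and at 9.62, 9.37, 9.58 and 9.35 on the YMT livers. OMT livers 1 and 2 lay among the YMT livers and the other 3 lay below them, so that the difference of -0.42 ± 0.16 missed the threshold (adjusted p = 0.0939 by limma). The lectins themselves, Mbl1 and Mbl2, which bind microbial sugars, differed by -0.01 ± 0.12 and 0.12 ± 0.10.

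Of the contact and intrinsic factors, F11 fell and its activator F12 did not. F11 (probe set 17509035) encodes factor XI, which activates factor IX and is activated by factor XIIa and thrombin. It lay at 8.14, 8.32, 7.75, 7.80 and 7.90 on the OMT livers and at 9.26, 9.13, 9.30 and 8.79 on the YMT livers. The highest OMT liver was below the lowest YMT liver, and the difference was -1.14 ± 0.14, or 2.20-fold (adjusted p = 0.000363 by limma). F12, factor XII, ran the other way without overlap, from 10.62 to 10.79 on the OMT livers and from 10.42 to 10.59 on the YMT livers, and missed the threshold (0.20 ± 0.07, adjusted p = 0.0611). F9, factor IX, differed by -0.07 ± 0.10, Kng1, the high molecular weight kininogen precursor, by 0.01 ± 0.06, and F7, the factor of the extrinsic arm, by 0.01 ± 0.06.

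**Figure D2:**
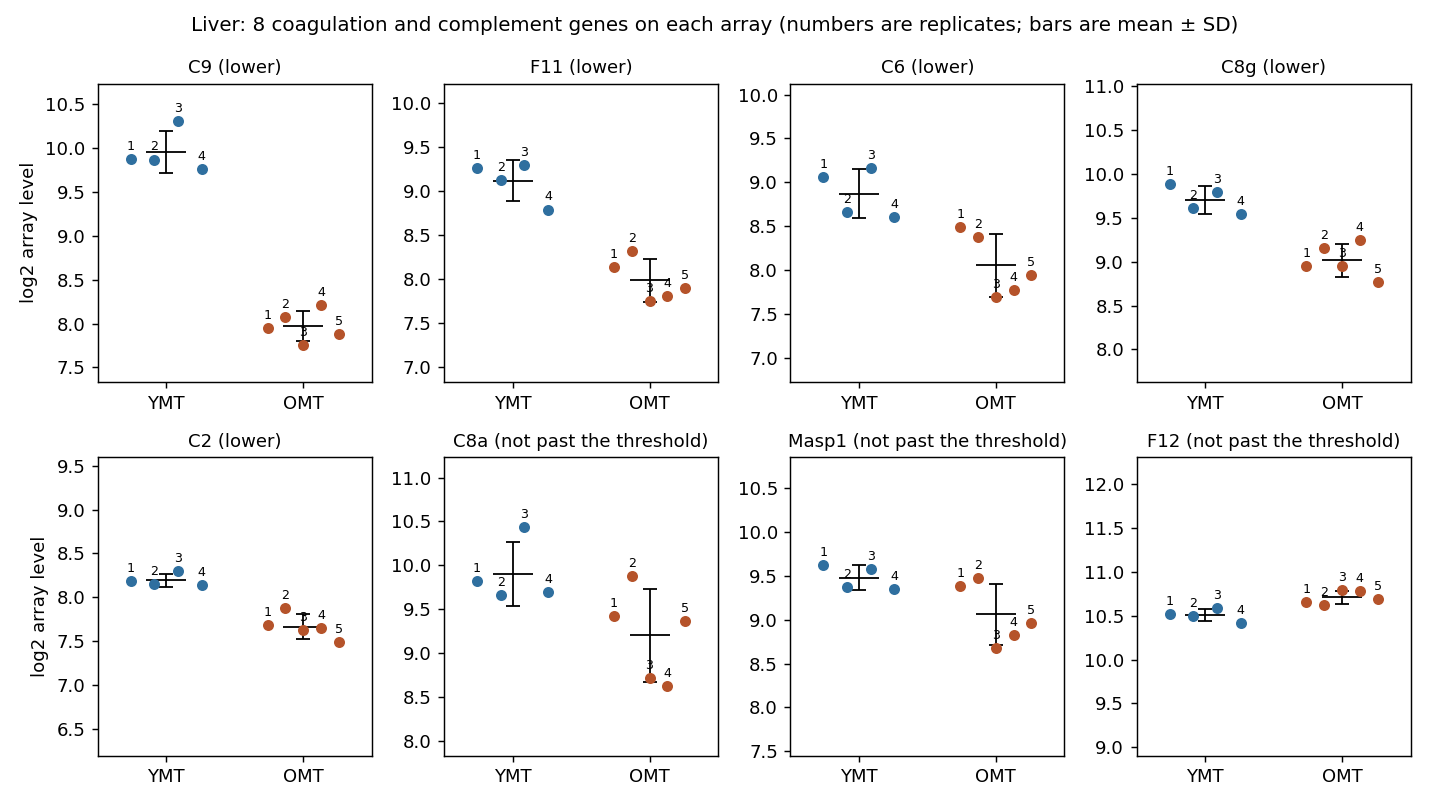
Log2 array level in each liver for the 5 genes that fell and for C8a, Masp1 and F12, with YMT livers in blue, OMT livers in orange, replicate numbers beside the points and bars at mean ± SD; all panels span the same number of log2 units. For C9, F11, C6, C8g and C2 every orange point lies below every blue one, while for C8a and Masp1 OMT replicates 1 and 2 lie near or among the YMT livers.

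No member of the common pathway or of fibrinogen passed the threshold in liver. F2 encodes prothrombin, the precursor of thrombin, and its level was 11.51 to 11.58 on the OMT livers and 11.51 to 11.62 on the YMT livers, a difference of -0.01 ± 0.06 (adjusted p = 0.946 by limma). F5, the cofactor of factor Xa, differed by 0.15 ± 0.08 (adjusted p = 0.206). F10, which converts prothrombin, was the common pathway gene nearest to the threshold, at 9.99 to 10.13 on the OMT livers and 10.21 to 10.32 on the YMT livers, without overlap (-0.18 ± 0.06, adjusted p = 0.0718). The fibrinogen genes Fga, Fgb and Fgg differed by -0.08 ± 0.08, -0.04 ± 0.07 and -0.08 ± 0.07. The 95% intervals of these 3 chains ran from -0.26 to 0.11, which leaves room for a level up to 1.20-fold lower or 1.08-fold higher in OMT. F13b, the carrier subunit of the factor that cross-links fibrin, differed by -0.16 ± 0.08 (adjusted p = 0.194).

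The anticoagulant and fibrinolytic members also stayed short of the threshold. Serpinc1, which encodes antithrombin, and Serpind1, heparin cofactor II, differed by -0.03 ± 0.07 and 0.03 ± 0.10. Proc, the precursor of activated protein C, differed by -0.07 ± 0.06, and Plg, the precursor of plasmin, by 0.00 ± 0.06. Pros1, the cofactor protein S, had the highest point estimate of the 30 genes at 0.25 ± 0.12 (adjusted p = 0.173 by limma), with OMT livers at 7.65 to 8.05 and YMT livers at 7.30 to 7.75. Together with F2, F7, F9 and F10, Proc and Pros1 make 6 measured members that need vitamin K for their carboxylation, and these ranged from -0.18 to 0.25 with none past the threshold.

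Over the 30 genes, 6 had every OMT liver below every YMT liver (C9, F11, C6, C8g, C2 and F10), which 8.51% of all genes did, and 1 (F12) had every OMT liver above, which 9.64% did. The 5 falls lay among probe sets with a mean level below 10. Split by mean array level in a way chosen after the values were seen, the 17 members at 10 or above on the log2 scale held no gene past the threshold, against 35.4% of the 339 genes at that level, and the 13 members below 10 held all 5, against 18.7% of 13041 genes. The member of highest array signal, Fgb, averaged 12.50 in OMT, and the highest value of a liver array was 13.24 to 13.36.

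OMT livers 1 and 2, which stood apart in earlier results of these data, both gave higher values than OMT livers 3, 4 and 5 for 7 members (F11, C6, C8a, Masp1, C2, Mbl2 and Proc). They both gave lower ones for 8 (Pros1, F9, F10, F12, F13b, Serpinc1, Cfi and C8b), and lay on neither side for the other 15. The share of all genes that split these livers in such a way was not counted, so no reading is drawn from these counts. Without OMT livers 1 and 2, the members past the threshold in liver were 7, all lower, with C8a at -1.002 (adjusted p = 0.0176 by limma) and Masp1 at -0.66 (adjusted p = 0.00328) added to the 5. Without OMT liver 2 alone, these 2 genes were added as well, at -0.87 (adjusted p = 0.0259) and -0.52 (adjusted p = 0.0343). OMT livers 1 and 2 were the highest OMT livers for both genes, so leaving them out was bound to lower the OMT mean. These runs therefore give no support for a fall of C8a or Masp1. The 5 falls kept an adjusted p under the threshold in every alternative run in liver, but C2 and C6 came close to it. Their highest adjusted p by limma was 0.0477 and 0.0422, against 0.0018 for C9. With a 1.5-fold minimum C2 dropped out and 4 members passed.

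**Figure D3:**
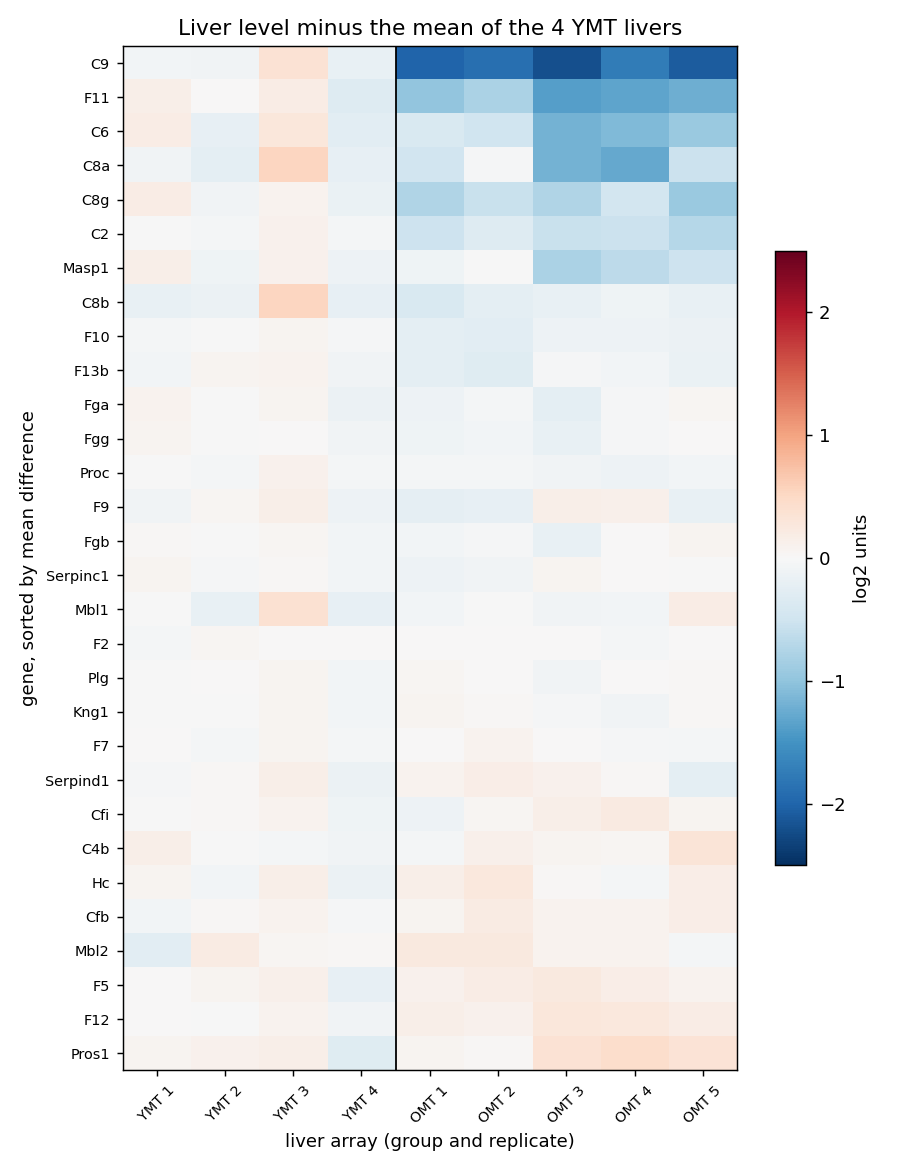
Each row is 1 of the 30 genes and each column 1 liver array, coloured by the log2 level minus the mean of the 4 YMT livers. C9, F11, C6, C8g and C2 are low across all 5 OMT columns, while C8a and Masp1 are lowest on OMT replicates 3 and 4, and YMT replicate 3 is high for C8a and C8b.

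Of the 12 hepatocyte markers, limma called Cyp2e1 as higher in OMT livers and none as lower. Markers of other liver cells did move: 9 of 12 endothelial and sinusoid markers were lower, with a mean level of 6.57 to 6.83 on the OMT livers and 7.01 to 7.32 on the YMT livers, as were 8 of 12 stellate cell and fibroblast markers (6.04 to 6.22 against 6.44 to 6.76). Of 13 Kupffer cell and macrophage markers, 4 were lower and 1 was higher (6.40 to 6.68 against 6.55 to 6.81). Over all genes tested in liver, 8.78% were lower and 10.4% higher. The part of these cell markers in the falls of the 5 members was not tested.

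Promoter sequences show what the fallen genes carry just upstream of their start. Of the 30 genes, 22 had an entry in the RefSeq promoter table (GRCm38.p6), among them 4 of the 5 that fell. The 250 bases before the start were searched on both strands for a C/EBP site (TTGCNNAA), a STAT site (TTCNNNGAA), the interleukin 6 type II element (CTGGGAA) and an HNF4 site (CAAAGTCC). C9, C6 and F11 are shown because they had the largest falls, and Fgb is shown as a fibrinogen gene of small difference with 3 of the 4 motifs. Each is written 5′ to 3′ along the gene's strand, and capitals mark every motif match.
C9, chr15:6445096-6445345, plus strand: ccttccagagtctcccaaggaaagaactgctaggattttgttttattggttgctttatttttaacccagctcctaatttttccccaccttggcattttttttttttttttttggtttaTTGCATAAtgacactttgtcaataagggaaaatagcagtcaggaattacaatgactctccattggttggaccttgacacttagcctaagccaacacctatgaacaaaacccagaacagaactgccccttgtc
C6, chr15:4726960-4727209, plus strand: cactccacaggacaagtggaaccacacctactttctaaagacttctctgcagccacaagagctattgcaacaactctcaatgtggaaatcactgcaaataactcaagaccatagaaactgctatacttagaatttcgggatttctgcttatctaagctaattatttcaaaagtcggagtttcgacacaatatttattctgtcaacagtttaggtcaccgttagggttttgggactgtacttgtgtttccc
F11, chr8:45262032-45262281, minus strand: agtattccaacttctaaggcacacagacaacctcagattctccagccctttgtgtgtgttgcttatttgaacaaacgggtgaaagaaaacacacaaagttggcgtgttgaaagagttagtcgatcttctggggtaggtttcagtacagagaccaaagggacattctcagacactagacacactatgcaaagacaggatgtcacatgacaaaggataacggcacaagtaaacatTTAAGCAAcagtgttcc
Fgb, chr3:83049864-83050113, minus strand: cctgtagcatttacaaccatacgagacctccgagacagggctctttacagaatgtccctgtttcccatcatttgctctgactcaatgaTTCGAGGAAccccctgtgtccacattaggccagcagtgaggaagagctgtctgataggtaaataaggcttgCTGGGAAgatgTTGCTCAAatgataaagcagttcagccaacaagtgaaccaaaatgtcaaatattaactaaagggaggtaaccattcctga

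The C9 window held 1 match, the C/EBP letters 132 to 125 bases before the start, and the F11 window held the same motif on the other strand, 17 to 10 bases before the start. The C6 window held none of the 4. In Fgb, the STAT letters lay 162 to 154 bases, the interleukin 6 letters 91 to 85 bases and the C/EBP letters 80 to 73 bases before the start, with no overlap. The C/EBP motif was in 5 of the 22 members' windows (C9, F11, F9, Fga and Fgb) and in 9.56% of all 32851 promoters of the table. The STAT motif was in 5 of 22 and in 7.02% of all, the interleukin 6 element in 3 of 22 and 9.1%, and the HNF4 motif in none of 22 and 1.2%. Of the 4 fallen genes with an entry, C9 and F11 held the C/EBP motif and none held the other 3. Members were counted by gene, with any promoter entry of the gene, and the whole table by entry, so these shares are not the same measure. A match is a run of letters, not a measured binding site.

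Other genes of haemostasis, from a list written for this comparison, moved in both directions in OMT livers. Of 24 tested, 5 were higher and 4 lower, with a median of 0.01. For this and the liver lists below, the share over all genes was 10.4% higher and 8.78% lower. Fgl1, a fibrinogen-like protein secreted by hepatocytes, rose by 1.81 ± 0.12, from 9.26 ± 0.10 (SD, n = 4) to 11.07 ± 0.24 (SD, n = 5; adjusted p = 8.92e-06 by limma), while the fibrinogen chains did not pass. The thrombin receptor gene F2r fell by 0.91 ± 0.11, Anxa2, a cell surface receptor for plasminogen and its activator, fell by 0.76 ± 0.11, and F8, the factor VIII gene, which in liver is made by sinusoidal endothelial cells, fell by 0.62 ± 0.10 (adjusted p = 0.0014). The endothelial marker levels given above were lower in the same livers, and their part in the fall of F8 was not tested.

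Of 24 other complement genes tested, 4 were lower and 1 higher, with a median of -0.09. C1s1 and C1ra, proteases of the C1 complex, fell by 0.67 ± 0.11 (adjusted p = 0.0018 by limma) and 0.62 ± 0.15 (adjusted p = 0.0151). Both have a near-identical copy that the array may not separate. Cfhr2, a factor H-related gene, fell by 0.45 ± 0.11, and Cpn2, the regulatory subunit of carboxypeptidase N, which inactivates anaphylatoxins, rose by 0.37 ± 0.11.

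For the processing of the factors, 9 genes of the vitamin K cycle and of factor maturation were tested, and 3 were higher and none lower, with 1 lower at an unadjusted p under 0.05. Mcfd2, part of the receptor that carries factors V and VIII out of the endoplasmic reticulum, rose by 0.74 ± 0.09, Nqo1, a quinone reductase, by 1.21 ± 0.17, and Pcsk5, a proprotein convertase, by 0.37 ± 0.09. Ggcx, the carboxylase of the vitamin K-dependent factors, and Vkorc1, the target of warfarin, were picked after their values were seen and did not pass (-0.29 ± 0.14 and 0.09 ± 0.07). Of 36 genes of the secretory pathway and endoplasmic reticulum chaperones, 15 were higher and 1 lower, with a median of 0.16. The chaperones Hspa5 (1.37 ± 0.14), Hyou1 (1.31 ± 0.15) and Hsp90b1 (0.83 ± 0.10) and the disulfide isomerase Pdia3 (0.63 ± 0.08) were the 4 of smallest p.

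Acute phase genes, not all of which encode secreted proteins, and other plasma protein genes were tested from separate lists. Of 20 acute phase genes, 9 were higher and none lower in OMT livers (1 lower at an unadjusted p under 0.05), with a median of 0.22. Over all genes tested in liver, 10.4% were higher. Apcs, serum amyloid P, rose by 1.85 ± 0.13, Itih3 by 1.11 ± 0.10, Hp, haptoglobin, by 0.73 ± 0.06, and Lbp, the lipopolysaccharide-binding protein, by 1.29 ± 0.13. The other 11 did not pass, and 4 of them had a negative difference. Among the 11 were Saa3 (-0.64 ± 0.21, adjusted p = 0.0532 by limma), Saa2 (-0.40 ± 0.76), Crp (0.07 ± 0.09) and Orm1 (0.04 ± 0.08). The fibrinogen genes, which are themselves acute phase genes, did not pass either. Of 22 other plasma protein genes, 4 were higher and 2 lower, with a median of -0.02. Lcat, which esterifies plasma cholesterol, rose by 0.89 ± 0.09 and Igfals, the acid-labile subunit that carries IGF1, by 0.90 ± 0.14, as did Itih2 by 0.38 ± 0.07, while the lipid carrier Apom fell by 0.59 ± 0.10.

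**Figure D4:**
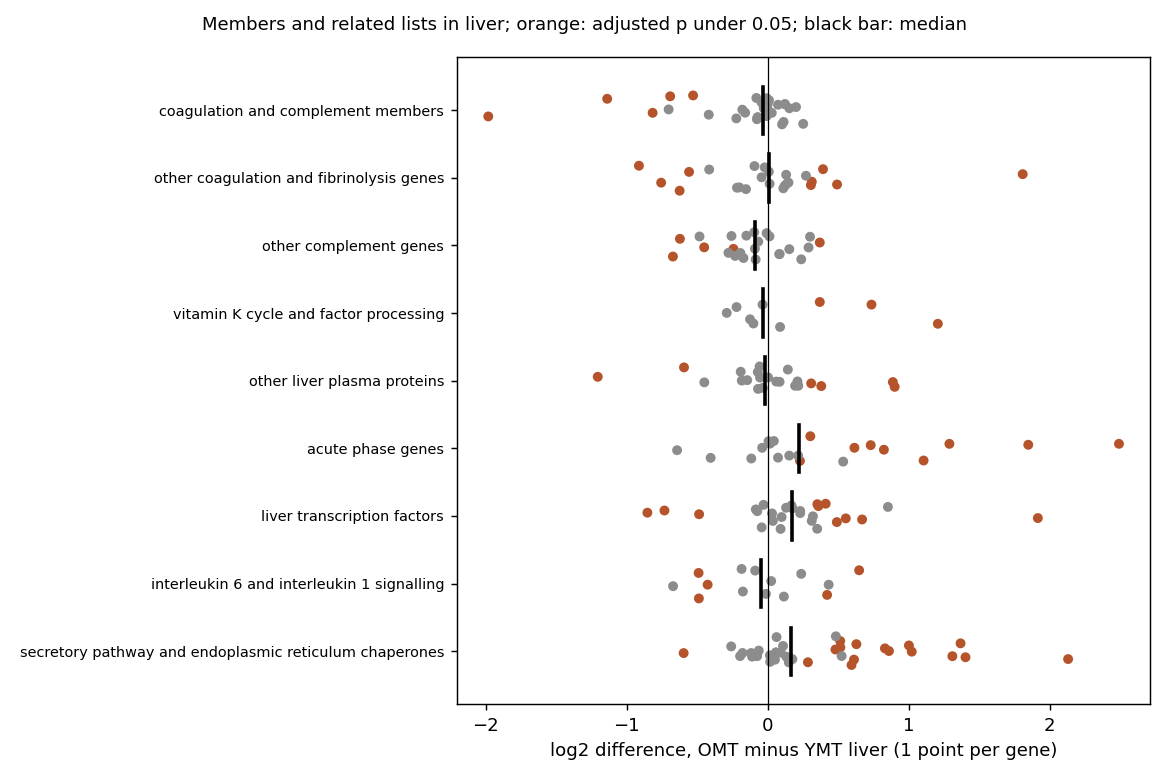
Difference between OMT and YMT livers, in log2 units on the horizontal axis, for every tested gene of the members and of 8 related lists, 1 point per gene, with genes past the adjusted threshold in orange and a black bar at each list's median. The members lie at or left of 0.25, whereas each of the acute phase and secretory pathway lists has 1 gene past 2 on the right.

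Genes from a general list of liver transcription factors and coactivators were measured too, and their action on the members was not tested. Of 27 liver transcription factor genes, 7 were higher and 3 lower, with a median of 0.18. Hnf4a, a nuclear receptor that many coagulation genes depend on, rose from 9.77 ± 0.09 (SD, n = 4) to 10.33 ± 0.23 (SD, n = 5; adjusted p = 0.00683 by limma). Nr1h4, the bile acid receptor FXR, rose by 0.35 ± 0.07, the xenobiotic receptors Nr1i3 and Nr1i2 by 1.92 ± 0.17 and 0.67 ± 0.11, and Stat3, which carries the interleukin 6 signal, by 0.36 ± 0.11 (adjusted p = 0.0442). The coactivator gene Ppargc1a fell by 0.73 ± 0.11. Cebpa and Cebpb, whose products bind C/EBP sites, differed by -0.07 ± 0.06 and -0.03 ± 0.08 and did not pass.

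Of 14 interleukin 6 and interleukin 1 signalling genes, 2 were higher and 3 lower, with a median of -0.05. The receptor genes Il6ra and Osmr rose by 0.65 ± 0.20 (adjusted p = 0.0434 by limma) and 0.42 ± 0.12. The cytokine gene Il1a, the kinase gene Jak2 and the receptor gene Il22ra1 fell by 0.49 ± 0.11, 0.49 ± 0.12 and 0.43 ± 0.11.

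In the small intestine, 8 of the 30 genes lay above the level filter and C2 alone passed the threshold; 4.14% of 13238 genes did so, 1.04% as higher and 3.1% as lower. At an unadjusted p under 0.05, limma gave C2 alone as well, against 7.5% of all genes as higher and 15.3% as lower. The 22 others, among them all terminal pathway and fibrinogen genes, lay between 1.19 and 5.03 on every intestine array, near or below the array medians of 4.39 to 4.51, and were not tested there. C2 lay at 5.00, 5.91, 5.60, 5.30 and 6.39 on the OMT intestines and at 6.71, 6.75, 6.68 and 6.85 on the YMT intestines. The YMT intestines were tight and the OMT intestines spread widely below them, without overlap, as 6.84% of genes did (2.8% had every OMT intestine above). The difference was -1.11 ± 0.23, or 2.15-fold (adjusted p = 0.0312 by limma). This call was lost in 8 of 20 alternatives, with no level filter (adjusted p = 0.0501), without OMT intestines 1 and 2 (adjusted p = 0.0911) and, singly, without OMT intestine 2 (0.0587) or 3 (0.0664) or YMT intestine 1 (0.07), 2 (0.0905), 3 (0.057) or 4 (0.0846).

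Cfb, the neighbour of C2, was the member with the highest level in intestine. It lay at 9.10, 8.94, 9.32, 9.34 and 9.19 on the OMT intestines and at 9.14, 9.31, 9.40 and 9.18 on the YMT intestines. The groups overlapped in part, and the difference was -0.08 ± 0.10 (adjusted p = 0.665 by limma). Of the other 6, Pros1 differed by 0.41 ± 0.20 (adjusted p = 0.247) and Mbl2 by -0.41 ± 0.47 (adjusted p = 0.638), and F10, F7, Plg and C4b by -0.03 to 0.12.

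**Figure D5:**
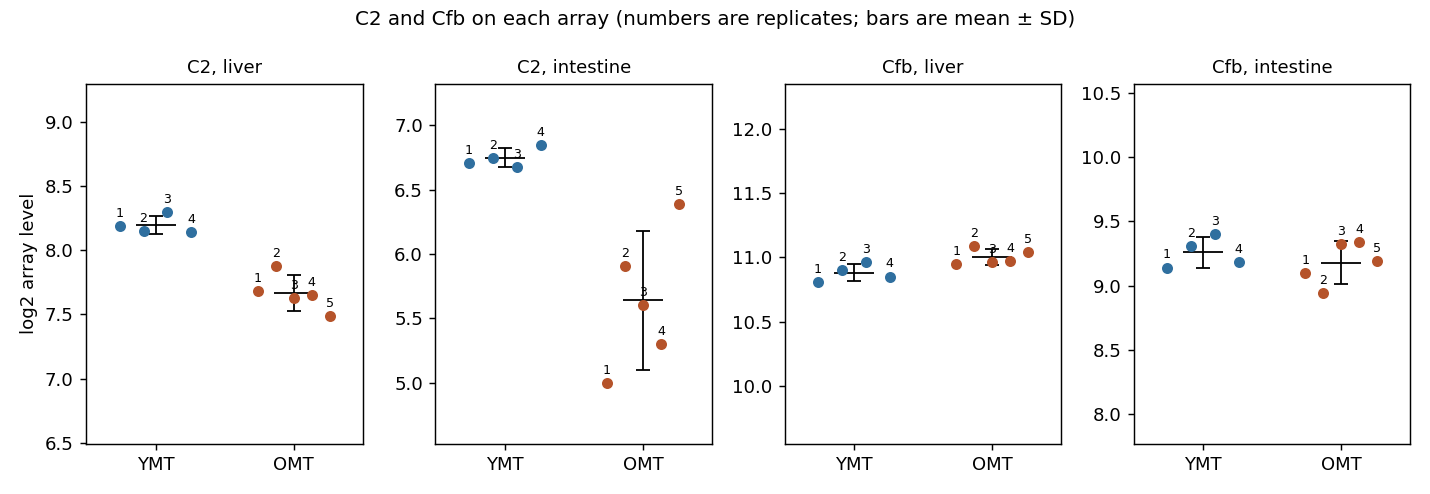
Log2 array level of C2 and Cfb in each liver and each intestine, with YMT in blue, OMT in orange, replicate numbers beside the points and bars at mean ± SD; all panels span the same number of log2 units. C2 is lower on every OMT array of either tissue, and Cfb overlaps between OMT and YMT in both.

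Whether the OMT to YMT difference was unequal in liver and intestine was tested on all 18 arrays, with 1 probe set for each of 14648 genes. The sample titles do not say whether a liver and an intestine of the same number came from 1 mouse. The fit treated the arrays as independent. Deviations from the group mean in liver and intestine of the same group and number correlated at -0.04 to 0.15. Of the 30 members 3 passed, C9, F11 and C8g, all with the liver difference below that in intestine, as for 4.05% of all genes; 11% passed in either direction. None of these 3 was above the level filter in intestine, so they entered the test through their liver level and their intestinal values are near background. A fall in intestine could hardly be seen at such levels, so the test adds little to the liver calls. The intestine differences were -0.06 for C9, 0.42 for F11 and 0.15 for C8g, against -1.98, -1.14 and -0.69 in liver. For F11 and C8g the intestine value of opposite sign thus adds to the result. For C2, which was measured in both tissues, the liver difference minus the intestine difference was 0.58 ± 0.26 and did not pass (adjusted p = 0.158 by limma), so its falls in liver and intestine were not shown to differ.

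The scaling of the arrays shifts the split of calls over all genes in liver. The share of calls that were higher in OMT was 54.2% on the deposited values and 43.7% after quantile normalization within the tissue (1156 higher and 1492 lower), while the 5 falls among the members were called under both and F12 was added as higher (adjusted p = 0.0426 by limma).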

How the data were processed

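RNA from 9 livers and 9 small intestines was hybridised to 1 array each, from 250 ng per the labels' protocols. The authors deposited log2 values from RMA, run in Expression Console (Affymetrix) according to the submitters' processing notes, which name no version. RMA subtracts background, equalises the arrays' distributions and summarises the probes of a set, which narrows differences at low signal. Base 2 was inferred from the values' range, and whether both tissues were normalized together is not stated, and levels were compared inside each tissue, apart from the check of the tissue labels by marker genes. No scan dates were used, so such a batch cannot be told apart from the groups.

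Of 41345 probe sets, 23521 had 1 gene symbol in the platform annotation, 1814 had several and 16010 were unnamed here. RefSeq (GRCm38.p6) held 23328 of the 23521 by gene identifier. A gene was tested in a tissue if its probe set lay above the array median on at least 4 of the 9 arrays, taking the probe set with the highest mean for each gene. OMT was compared with YMT by limma 3.58.1 in R 4.3.3 (lmFit, eBayes), two-sided, with groups from the sample titles; no arrays held identical values. The difference between tissues was an interaction term over 18 arrays in 4 groups. The p-values measure the spread between these mice.

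The members and all lists were chosen with earlier results of these data known. Named by rule are all members, up to 4 genes of smallest p per related list, Hnf4a, Cebpa, Cebpb, Stat3, Nr1h4 and Il6ra, and in intestine every member above the filter; a further gene of the rule is not reported here. The steps were tested on simulated data. Alternatives are given in the closing section. Promoters were searched and figures drawn in Python 3.11.15 with matplotlib 3.10.9.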

Additional observations from a re-analysis of the deposited data

Results flagged for a closer look

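In 5 of 76 groups of arrays, 1 array stood apart from the rest of its group by Dixon's test; chance alone flags about 1 in 20 groups. These were prothrombin (F2) on OMT liver 4, at 11.51 and below the other OMT livers, protein S (Pros1) on YMT liver 4, at 7.30 and below the other YMT livers, and C8b on YMT liver 3, at 11.12 and above them. In intestine they were F7 on OMT intestine 2, at 5.40 and above its group, and plasminogen (Plg) on YMT intestine 2, at 4.09 and below it.

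For 3 genes the OMT to YMT difference was unequal in liver and intestine by the limma interaction term. The liver difference minus the intestine difference was -1.92 for C9 (adjusted p = 5.59e-07), -1.56 for F11 (adjusted p = 6.52e-05) and -0.84 for C8g (adjusted p = 0.00215). None of the 3 was above the level filter in intestine, where a fall could hardly be seen. The result therefore adds little to the liver calls.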

How the results depend on the processing

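Each alternative changed 1 choice: the level filter, the scaling, the probe set rule, eBayes settings, array weights, a fit of both tissues together, the replicate block, the threshold, a fold minimum and each array left out. In liver, 5 members passed in the reported fit and 9 at a threshold of 0.10, and 5 to 7 with each array left out. All genes past the threshold in liver went from 2563 to 1459 with the replicate block and to 914 with a 1.5-fold minimum (1790 to 2685 with each array left out). F12 passed as higher in 5 alternatives and F10 as lower in 2.

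In intestine the 548 genes became 310 with no level filter, 1445 with both tissues in 1 fit, 1172 with array weights, 1331 at a threshold of 0.10, 311 with a 1.5-fold minimum, 230 without OMT replicates 1 and 2, and 147 to 636 with each array left out. The members past the threshold there went from 1 to 0 with no filter or without OMT replicates 1 and 2, and were 0 to 1 with each array left out. For the difference between tissues, 3 members became 5 at a threshold of 0.10.

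A sign was read only where a difference exceeded its SE in at least 1 of the settings compared. By that rule Mbl1 in liver (-0.076 to 0.12) and C4b in intestine (-0.15 to 0.14) changed sign with an array left out, and neither passed the threshold in any alternative.

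Replicate numbers recur in both groups, and the values did not show that they pair the samples, though so few arrays cannot exclude it. OMT and YMT livers of the same number correlated at -0.18 to 0.09 and intestines at -0.06 to 0.32. Of the YMT samples, 1 of 4 livers and 1 of 4 intestines correlated best with its own number. With the replicate block, 5 members passed in liver and 1 in intestine, where 458 genes passed; OMT replicate 5 stands alone in it. The causes of these changes were not tested. Limits are the small groups, whole tissue, and 8 members above the filter in intestine.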
